A study of Arabidopsis thaliana with 34 samples.

Results

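VRN2 is one of the Su(z)12-type subunits of Polycomb repressive complex 2 (PRC2) in Arabidopsis thaliana, and the genomic sites described here are the VRN2-YFP peaks that lie inside chromatin carrying the PRC2 product H3K27me3. A site was counted when overlapping peaks came from at least 2 of the 3 deposited VRN2-YFP peak lists and touched, by 1 bp or more, a merged H3K27me3 region listed in at least 2 of the 3 deposited tables. There were 1028 such sites among the 1402 peaks held by at least 2 lists (73.3%). Of the other peaks, 313 lay outside every H3K27me3 region and 61 touched a region listed in 1 table only. The sites were thus chosen by measured values, namely the authors' peak and region calls from these libraries, so peak folds and the presence of H3K27me3 are given below as descriptions without a test.

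The study comprised 34 samples. VRN2-YFP was immunoprecipitated, with the AB290 antibody, from whole seedlings of the complemented line vrn2-5/pVRN2::VRN2-YFP, in which the VRN2 promoter drives the tagged protein in the vrn2-5 mutant (3 precipitations and 3 inputs). H3K27me3 came from whole seedlings of vrn2-5 and of Col-0, the wild-type accession (3 precipitations and 3 inputs each). Seedling mRNA came from vrn2-5, Col-0, vrn2-5 prt6-1 and prt6-1 with 3 libraries each, and whole-rosette mRNA from vrn2-5 pif4-2 and pif4-2 with 2 libraries each. Both genotypes of the second seedling comparison thus carry prt6-1, a mutant of the ubiquitin ligase PRT6 that acts in the breakdown of VRN2, and both rosette genotypes carry pif4-2, a mutant of the growth-promoting factor PIF4. The sources used here do not state plant age, light or temperature. Replicates are not described as separate plantings, so the spread behind each p-value is that between these samples and may be technical.

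PRC2 places 3 methyl groups on lysine 27 of histone H3, and the mark keeps genes silent through cell divisions. The catalytic subunits CLF and SWN work with FIE, MSI1 and one of the subunits VRN2, EMF2 or FIS2. VRN2 is best known for the silencing of the floral repressor FLC after a long cold period. It is also an unstable protein, degraded through the N-degron pathway when oxygen and nitric oxide are present.

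Libraries held 10.1 to 15.7 M reads for H3K27me3, 1.21 to 27.9 M reads for seedling mRNA and 15.9 to 26.3 M reads for rosette mRNA. Seedling levels are the authors' normalized reads, and 1 sequenced read was worth 0.205 to 5 of them. VRN2 stood at 50.1, 45.0 and 50.3 normalized reads in vrn2-5 against 116, 163 and 135 in Col-0, and it was also lower in each of the other libraries labelled vrn2-5 than in their controls. PRT6 transcript was present in libraries labelled prt6-1 (49.6, 142 and 93.8), and PIF4 transcript in rosettes labelled pif4-2 (64.4 and 52.3 CPM, reads scaled to the library total), so neither gene checks those labels, which are used as given. The photosynthesis genes LHCB1.1, LHCB1.2, LHCB1.3, LHCA1 and RBCS1A read 27700 to 285000 in every seedling library. Root genes were present too, with PYK10 between 10900 and 25800, SCR at 151 to 278 and SHR at 45.8 to 82.5, while the root tip genes WOX5 and PLT1 read 0 to 9.99 and 0 to 19.1. In such whole-plant samples fewer cells of a type and less RNA per cell cannot be told apart.

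The sites were narrow and weakly enriched. Their median width was 609.5 bp (quartiles 464.8 and 824.2 bp). The authors' fold over background, which the peak caller wrote for each list, had a median of 2.15 in list 1 (940 sites), 2.03 in list 2 (900 sites) and 1.99 in list 3 (553 sites). Peaks outside every region had medians of 2.12, 2.13 and 2.17 in the same lists. The strongest single values were 7.12, 5.37 and 6.50 at the sites and 7.67, 6.42 and 11.7 at the outside peaks. A median fold of 3 or more was reached by 65 sites (6.32%) and by 26 outside peaks (8.31%).

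**Figure D1:**
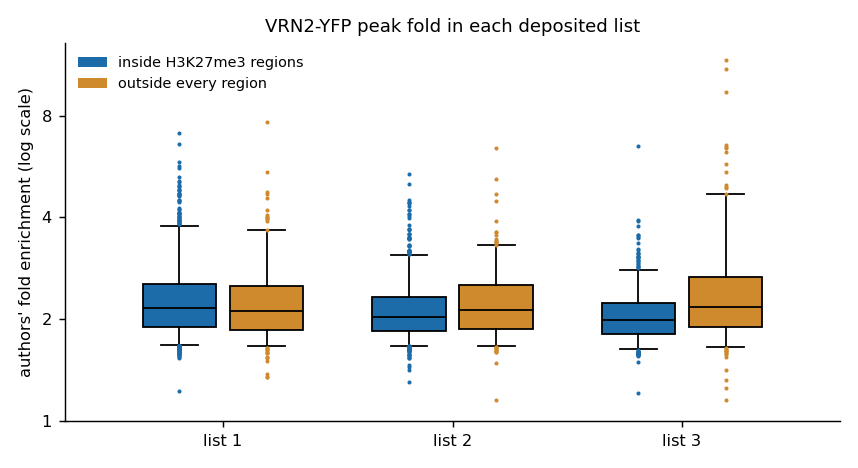
Authors' fold enrichment (log axis) of VRN2-YFP peaks in each of the 3 deposited lists, for the 1028 sites inside H3K27me3 regions (blue) and the 313 peaks outside every region (orange). Boxes span the quartiles, the line is the median and whiskers reach the 5th and 95th percentiles. Medians lie near 2 in both classes, and the highest values of list 3 belong to outside peaks.

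Agreement between the lists was partial. List 1 and list 2 alone shared 475 sites, list 1 and list 3 alone 128, and list 2 and list 3 alone 88, while 337 sites (32.8%) were in all 3 lists. Of the outside peaks, 147 of 313 (47.0%) were in all 3 lists. Over the 337 sites in all 3 lists, the fold in list 1 followed that in list 2 closely (Pearson r 0.846, Spearman rho 0.758), and that in list 3 less so (r 0.475, rho 0.389). The 3 summits of a site lay a median of 201 bp apart, against 104 bp for outside peaks, and within 100 bp of each other at 89 sites (26.4%) against 73 outside peaks (49.7%). Points in these comparisons are sites from the same 3 precipitations.

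At the edge of the rule, the smallest overlap between a site and its region was 23 bp, and the nearest peak left out lay 37 bp from a region. Only 5 of the 374 peaks left out were within 200 bp of a region. Of 6474 merged peaks found in a single list, 3842 (59.3%) lay in such a region, with a median fold of 1.84. The median fold was 2.00 for sites in 2 lists and 2.25 for those in 3.

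The strongest sites were at genes with quite different functions. The highest median fold belonged to a site with no gene of the deposited table, at chromosome 4, 5579058 to 5580857 (TAIR10), with folds of 7.12, 5.37 and 3.13 in lists 1, 2 and 3; RefSeq places 7 genes between its flanking table genes. Next came NAC074, a NAC-domain transcription factor gene (chromosome 4, 14090526 to 14092632), with folds of 5.60, 5.03 and 3.21. CYP79B2, whose enzyme makes the indole-3-acetaldoxime used for indole glucosinolates and camalexin, had 4.81, 4.50 and 3.11 (chromosome 4, 18525227 to 18526330). That summit lay in the gene body, 645 bp from the start.

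Other strong sites lay upstream of NPX1 and over its neighbour AT5G63350 (4.66, 4.43 and 2.85), between the divergent genes EXPA20, an expansin, and AQI (4.71, 4.40 and 2.56), at AT1G49330, a hydroxyproline-rich glycoprotein gene upstream of ATPI4K ALPHA (5.14, 4.40 and 2.87), and at DOF4.7, a zinc finger factor gene (5.28, 4.33 and 3.23). The remaining sites of the 10 strongest were one downstream of AT1G72090 (5.85, 4.21 and 3.08), which only touched its 3' end, and a pair with no table gene. One of those had 4.63, 4.21 and 3.47 (chromosome 5, 4521995 to 4523095), where RefSeq lists KNU, a zinc finger repressor of the stem cell gene WUS, among 3 genes between the flanking genes. The other had 5.69, 4.09 and 2.77 (chromosome 5, 8162112 to 8163252). All 10 were highest in list 1 and lowest in list 3; the 11th had a median fold of 4.04, against 4.09 for the 10th.

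The H3K27me3 regions numbered 5298 and covered 32 Mb, or 26.9% of the span of the 5 chromosomes. Sites fell in 909 of them (17.2%), with 805 regions holding 1 site, 91 holding 2, 11 holding 3 and 2 holding 4. Regions with a site had a median width of 5.8 kb against 4.6 kb without one, and 87.2% against 68.2% were listed in all 3 tables. Their H3K27me3 reads per length were higher in each library: the median in RPM (reads scaled to the library total) per kb was 21.9, 18.1 and 16.1 in vrn2-5 and 24.0, 19.4 and 17.2 in Col-0, against 16.3, 13.3 and 12.4 in vrn2-5 and 18.6, 14.6 and 13.3 in Col-0 for regions without a site. Split into 5 width classes, the share with a site was 15.4, 12.7, 14.3, 17.0 and 26.2% from narrow to wide, while sites per Mb of region were 77.4, 39.4, 32.6, 28.4 and 24.1.

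Within a region the sites were spread from edge to edge, with somewhat fewer at either end. From the left to the right edge, successive equal parts of the region held 16.6, 20.9, 20.5, 23.0 and 17.7% of the 1028 summits, and 13 summits lay outside their region although the peak reached into it. In all, 969 sites (94.3%) were wholly inside. The median summit was 1327 bp from the nearer edge, and 176 (17.1%) were within 500 bp of an edge or beyond it.

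Near genes, summits were most frequent a short way downstream of the start. The summit was in a gene body at 437 sites (42.5%), in the 1 kb upstream of a gene at 104 (10.1%) and away from any table gene at 487 (47.4%), against 97 (31.0%), 15 (4.79%) and 201 (64.2%) of the outside peaks. Between 250 and 750 bp downstream of the nearest gene start lay 240 summits (23.3%), against 31 of the outside peaks (9.90%), and within 250 bp on either side lay only 56 (5.45%), against 10 (3.19%). These windows were set after the distances were plotted.

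**Figure D2:**
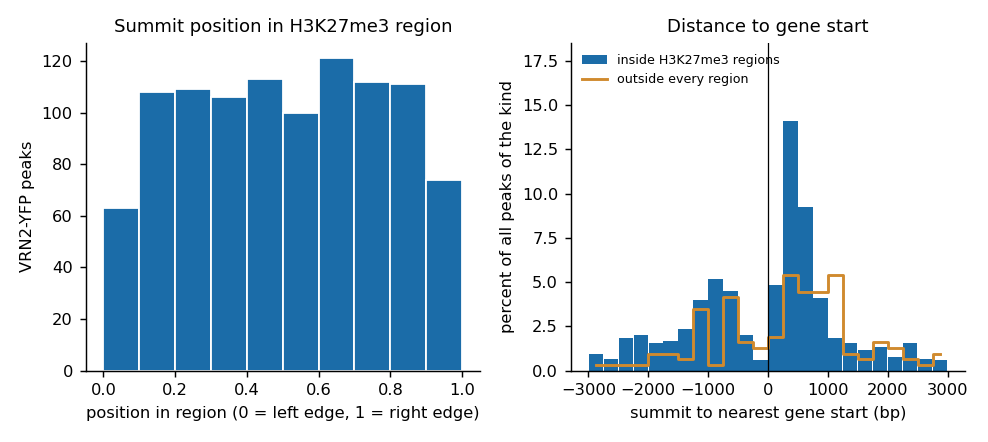
Left, position of the summit within its H3K27me3 region (0 left edge, 1 right edge) for the sites whose summit lies inside. Right, signed distance in bp from summit to the nearest gene start in the deposited table, positive downstream, as a percent of all 1028 sites (blue bars) or of all 313 outside peaks (orange line), within 3000 bp. Sites are spread over the region and are most frequent 250 to 750 bp downstream of a start.

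Using gene bodies plus 1 kb upstream, 585 sites (56.9%) touched 665 genes, which is 3.06% of the 21713 nuclear genes with coordinates and 9.45% (664) of the 7029 genes under H3K27me3. The peak touched the body of 435 genes and only the upstream kilobase of 230. The other 443 sites (43.1%) touched no gene of the deposited table, which is not a complete annotation: at 424 of them RefSeq lists at least 1 gene between the flanking table genes, and at 85 exactly 1. Sites with a table gene had a median fold of 2.10 and reached a fold of 3 at 50 sites (8.55%), against 2.01 and 15 sites (3.39%) for those without.

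In the deposited table, the descriptions of 76 of the 665 genes (11.4%) held words used for transcription factors, against 530 (8.35%) of the genes under H3K27me3 without a peak and 6.65% of all genes. These words included zinc finger, which also describes other proteins. Cytochrome P450 genes made up 11 (1.65%, against 1.01% and 0.682%) and peroxidase genes 7 (1.05%, against 0.551% and 0.373%). Kinases were 24 (3.61%, against 5.59% and 6.14%) and ribosomal protein genes 4 (0.602%, against 1.61% and 2.04%). Of the 164 genes with an outside peak, 18 had the transcription factor words, a share close to that of the site genes. Genes with an outside peak had 0.61% cytochrome P450, 0.0% peroxidase, 3.05% kinase and 1.83% ribosomal protein genes. The search words were chosen after the gene names had been seen, and no test was made.

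Several regions held a row of sites. An 11.4 kb region on chromosome 4 (13606601 to 13618000) held 4 sites with median folds of 3.58, 2.08, 2.98 and 3.19. RefSeq lists SESA1, SESA2, SESA3 and SESA4, genes for seed storage albumins, between its flanking table genes. The 19.4 kb region of NAC074 held 3 sites, with median folds of 2.52 at PHB1, 2.08 at a site where RefSeq lists CRU3, a cruciferin seed storage protein gene, and 5.03 at NAC074. The other region with 4 sites (chromosome 5, 11731001 to 11739000) had folds of 1.90, 2.12, 3.94 and 3.14 and no table gene, and 63 of the 71 RefSeq genes between its flanking genes are pseudogenes. Regions with 3 sites also included one at CER1, a gene of cuticular wax synthesis (chromosome 1, 414401 to 423400), one at VSP2, a vegetative storage protein gene (chromosome 5, 8497601 to 8515800), and one at CRY3 and FPF1 (chromosome 5, 8538401 to 8545800).

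Among 143 genes on 14 lists of pathways and cell types, 132 had coordinates and 13 carried a site. They came from the lists of flower and meristem development, of shade and auxin responses, and, with 1 gene each, of flowering control, defence and root patterning. Hypoxia genes (7 of 14 in a region, PCO1, PCO2 and ADH1 among them), circadian clock genes (1 of 10 in a region), cold and abscisic acid genes (2 of 6) and seed maturation genes (FUS3, ABI3 and DOG1, 3 of 3) had none. Of the 16 Polycomb machinery genes with coordinates, 4 were in a region and none carried a site, while VRN2 itself carried a peak outside every region. Of the rapid stress genes 4 of 10, and of the photosynthesis genes 4 of 5, carried such an outside peak.

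All 12 floral homeotic genes with coordinates lay in an H3K27me3 region, and 3 of the 12 had a site, where 9.45% of all genes under H3K27me3 did: LFY, the floral meristem identity factor, with folds of 2.09 and 2.27 in lists 1 and 2 (chromosome 5, 24844111 to 24844699, summit 233 bp into the gene); FUL, a MADS-box gene of meristem and fruit identity, with 1.94, 2.01 and 2.02 (chromosome 5, 24505276 to 24506302); and PI, a petal and stamen identity gene, with 1.98 and 2.51 in lists 1 and 3 from a peak that spans AT5G20225 and BCB just upstream (chromosome 5, 6826647 to 6828094). AG, AP1, AP3, SEP1, SEP2, SEP3, SHP1, AGL6 and AGL24 were in a region without a site. Of the 6 flowering control genes in a region, TSF, a close relative of the florigen gene FT, had a site with 1.69 and 1.86 in lists 1 and 2 (chromosome 4, 11001020 to 11001640), and FLC, MAF4, MAF5, FT and SOC1 had none.

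Meristem and boundary genes were represented by KNAT1, a class I KNOX homeobox gene, and CUC2, a NAC gene that sets organ boundaries. The KNAT1 site lay mostly downstream of the gene and reached its 3' end (chromosome 4, 5146693 to 5147852), with folds of 2.26, 2.64 and 2.32. Its summit, at 5146884, was outside the gene. The site of CUC2 had 1.94 and 1.69 in lists 1 and 2. STM, KNAT2, KNAT6 and CUC3 were in a region without a site, and CUC1 carried a peak outside every region. WUS, the stem cell organizer, has no coordinates in the deposited table, but in RefSeq order it lies with 1 other gene between the table genes that flank 2 sites on chromosome 2, one at 7810287 to 7810697 (folds 2.17 and 1.69 in lists 1 and 2) and one at 7812575 to 7812986 (1.92, 1.84 and 2.12). In the same way PLT1, a root stem cell factor, is the only RefSeq gene between the table genes around a site with 2.14, 2.08 and 1.86 (chromosome 3, 7299121 to 7299583). LEC1, a regulator of embryo development, is 1 of 6 such genes around a site with 2.37 and 2.44 in lists 1 and 2, and GH3.1 is 1 of 11 around another.

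Of 23 genes on the PIF and shade list, 10 were in a region and 3 carried a site. CKX5, a cytokinin oxidase, had folds of 2.12 and 1.96 in lists 1 and 2 (chromosome 1, 28317475 to 28318040, summit 570 bp from the start). YUC9, a flavin monooxygenase of auxin synthesis, had 1.96 and 1.69, and ST2A, which sulfates hydroxyjasmonate, had 2.46 and 1.98. ATHB4, PIL1, HFR1, YUC2, YUC8, IAA19 and IAA29 were in a region without a site. Of 8 early auxin genes 5 were in a region, and IAA5, an Aux/IAA repressor gene, and GH3.3, which conjugates auxin to amino acids, carried sites (2.12 and 1.89 in lists 1 and 2 upstream of IAA5, and 2.34, 2.10 and 1.89 at GH3.3). PR1, a salicylate-induced defence gene, had 2.81, 2.44 and 2.67, and was the only one of 4 salicylate genes, all in a region, with a site. SHR, which patterns the root endodermis, had 2.06 and 1.84 in lists 1 and 2.

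Whether H3K27me3 at the sites depends on VRN2 was addressed by setting vrn2-5 seedlings against Col-0. The change was small, and was like that of regions without a site. Of the 3786 regions listed in all 3 tables, 793 held a site, and their median log2 difference (vrn2-5 minus Col-0) was -0.08 against -0.09 for the 2993 others. The replicate medians were -0.086, -0.0685 and -0.0644 at regions with a site and -0.143, -0.0529 and -0.0582 at the others. By edgeR's quasi-likelihood test with replicate as a block (adjusted p under 0.05 over all regions), 256 regions with a site were lower in vrn2-5 (32.3%), where the background over all regions was 29.5%, and 49 were higher (6.18%, background 5.65%). All 3 ratios were below 0 in 417 of the 793 (52.6%), against 48.6% of the others.

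These calls depended on the scaling and on the block. With TMM scaling over regions, which shifts the median of all regions from -0.0854 to -0.0105 on the log2 scale, 129 regions with a site were lower (16.3%, background 15.4%) and 129 higher (16.3%, background 15.8%). The 129 lower and 49 higher regions kept their call under both scalings. Without the replicate block edgeR called 0 regions with a site, and 4 had an unadjusted p under 0.05. DESeq2 called more regions with a site higher than lower, with the counts given in the last section. The tables head their libraries A and B only. A was taken to be vrn2-5 and B to be Col-0, because the comparison is named in that order, and each direction of H3K27me3 given here depends on this.

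Region width went with the size of the change. In 5 width classes from narrow (up to 3.0 kb) to wide (over 9.2 kb), the median log2 difference was -0.232, -0.151, -0.0897, -0.0548 and -0.0092 at regions with a site, and -0.231, -0.134, -0.0855, -0.0529 and -0.0113 at regions without. Lower calls made up 54.2, 43.8, 25.9, 30.1 and 17.5% of regions with a site, against 44.8, 31.4, 27.6, 18.3 and 16.9% without. The medians of both kinds were thus close within each class. Reads per length were higher in regions with a site, as given above, and the part of this in the share of calls was not tested.

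**Figure D3:**
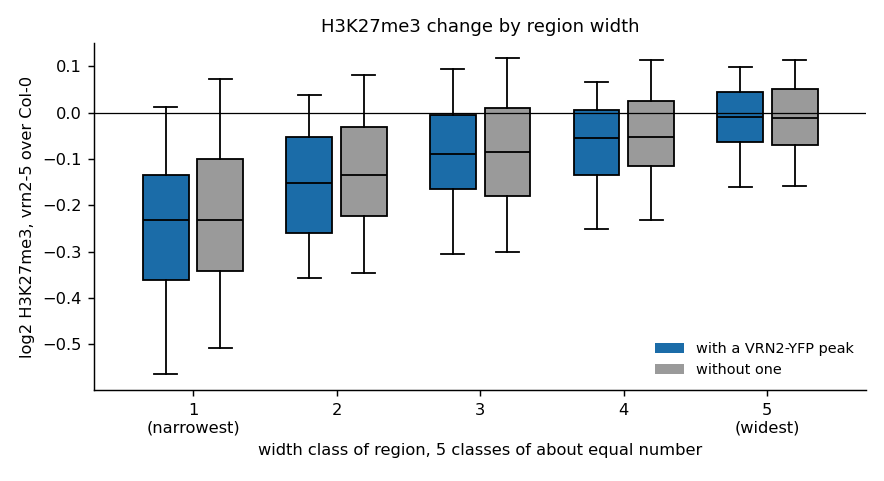
Fitted log2 difference in H3K27me3, vrn2-5 over Col-0, for regions with a VRN2-YFP site (blue, n = 142, 130, 139, 153 and 229) and without one (grey) in 5 width classes of about equal number. Boxes span the quartiles, the line is the median and whiskers reach the 5th and 95th percentiles. In both kinds the median is lowest in the narrowest class and near 0 in the widest.

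Peak strength was nearly unrelated to the size of the change. Over the 793 regions, the fold of the strongest site and the log2 difference had a Pearson r of -0.0296, a description over regions that share 6 libraries. Over all 3786 regions 29.5% were called lower and 5.65% higher, and the shares of lower calls that follow lie near that background. The 60 regions with a site of fold 3 or more had a median log2 difference of -0.0539, with 16 lower (26.7%) and 4 higher. Of the 93 regions with 2 or more sites, 28 were lower (30.1%). Of the 505 regions whose sites touched a table gene, 33.5% were lower (median -0.08), and of the 288 whose sites touched none, 30.2% (median -0.07). The 116 regions with a site that only 2 tables listed got values without a test: their median log2 ratio was 0.073, below 0 in both tables at 36 and above 0 in both at 57.

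By edgeR 17 regions with a site (2.14%) were called lower by more than 0.5 on the log2 scale and 0 higher, and over all 3786 regions 64 (1.69%) were lower and 2 higher by as much. FLA10, a fasciclin-like arabinogalactan protein gene, had 33.3, 22.5 and 16.5 RPM in vrn2-5 against 49.8, 39.0 and 22.3 in Col-0 (chromosome 3, 22499401 to 22501000; log2 -0.61, SE 0.0983, edgeR adjusted p = 4.68e-05). The region upstream of ATHSRP54A, a gene for a subunit of the signal recognition particle, had 38.4, 34.0 and 29.8 RPM in vrn2-5 against 60.1, 54.0 and 39.5 in Col-0 (log2 -0.58, SE 0.0820, edgeR adjusted p = 1.17e-05). The region upstream of AT4G09750 had 58.9, 60.2 and 56.1 RPM in vrn2-5 against 90.5, 79.9 and 73.2 in Col-0 (log2 -0.48, SE 0.0633, edgeR adjusted p = 4.60e-06), the smallest p of all regions with a site. In each of these 3 regions vrn2-5 was lower in every replicate, and they remained lower with TMM (log2 -0.54, -0.51 and -0.40).

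The other 7 of the regions with the smallest p among lower ones were chosen by that p alone. IAA30, an Aux/IAA gene, had 82.2, 60.7 and 56.9 RPM in vrn2-5 against 115, 76.0 and 70.1 in Col-0 (log2 -0.38, edgeR adjusted p = 3.43e-05). The region around the LEC1 interval (chromosome 1, 7722601 to 7734200) had 158, 135 and 99.3 RPM in vrn2-5 against 198, 156 and 119 in Col-0 (log2 -0.27, edgeR adjusted p = 2.14e-05). The region where RefSeq lists DAD1, a lipase gene of jasmonate synthesis, had 171, 110 and 109 RPM in vrn2-5 against 218, 126 and 134 in Col-0 (log2 -0.29, edgeR adjusted p = 1.17e-05). Each was lower in every replicate. The rest were AT1G68180 (log2 -0.32), a region where RefSeq lists AT2G01240 (-0.56), a region where it lists SWEET14, a sugar transporter gene (-0.24), and AT4G16820, a lipase gene with 2 sites (-0.24).

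Among regions called higher in vrn2-5, the one with the largest difference of those named here was a region of chromosome 3 (13589001 to 13592200) with 2 sites and no table gene, at 25.5, 142 and 134 RPM in vrn2-5 against 24.2, 93.1 and 94.3 in Col-0 (log2 0.45, SE 0.0665, edgeR adjusted p = 1.98e-05). SCAMP5, a secretory carrier membrane protein gene, had 122, 66.2 and 46.7 RPM in vrn2-5 against 91.3, 53.9 and 41.9 in Col-0 (log2 0.31, SE 0.0635, edgeR adjusted p = 0.000568). GulLO3 had 351, 224 and 197 RPM in vrn2-5 against 294, 204 and 187 in Col-0 (log2 0.17, edgeR adjusted p = 0.000293). All 3 were higher in every replicate, and with TMM their log2 differences were 0.52, 0.39 and 0.24. Each replicate was counted over its own table's regions, whose extents can differ, so RPM are comparable only within a replicate. The other 7 regions with the smallest p among higher ones, AT3G11150, the peroxidase gene AT5G64120 and intervals with SWEET6 and RALFL10 among them, differed by 0.09 to 0.15 with the authors' totals.

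Of the 13 list genes with a site, 5 lay in a region called lower and 3 in one called higher, where 29.5% of all regions were called lower and 5.65% higher. TSF had 72.9, 53.3 and 48.2 RPM in vrn2-5 against 92.9, 62.6 and 59.8 in Col-0 (log2 -0.30, edgeR adjusted p = 0.000736). ST2A had 147, 59.1 and 68.7 RPM in vrn2-5 against 171, 81.4 and 79.5 in Col-0 (log2 -0.29, edgeR adjusted p = 0.000215). YUC9 had 74.2, 20.2 and 26.0 RPM in vrn2-5 against 92.6, 25.5 and 31.2 in Col-0 (log2 -0.31, edgeR adjusted p = 0.00434). All 3 were lower in every replicate and were also called with TMM (log2 -0.23, -0.21 and -0.22). With DESeq2 the call held at ST2A (adjusted p = 0.0491) but not at TSF (adjusted p = 0.0662) or YUC9 (adjusted p = 0.154). IAA5 (log2 -0.16, edgeR adjusted p = 0.000593) and PR1 (log2 -0.14, edgeR adjusted p = 0.00641) were called lower with the authors' totals but not with TMM, where their adjusted p was 0.0965 and 0.215.

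PI, FUL and CUC2 went the other way. PI had 269, 159 and 146 RPM in vrn2-5 against 251, 144 and 136 in Col-0 (log2 0.11, edgeR adjusted p = 0.0123). FUL had 449, 289 and 261 RPM in vrn2-5 against 412, 272 and 248 in Col-0 (log2 0.10, edgeR adjusted p = 0.00669). The region of CUC2, which holds 2 sites, was higher by 0.10 (edgeR adjusted p = 0.00408). All 3 were higher in every replicate and were also called with TMM and DESeq2. Each lost its call without 1 replicate: PI without replicate 2 (edgeR adjusted p = 0.0649), and FUL and CUC2 without replicate 1 (edgeR adjusted p = 0.0753 and 0.0575). KNAT1 had a log2 difference of 0.06 (edgeR adjusted p = 0.0763), and was called higher with TMM (0.13, adjusted p = 0.00568). The other regions did not pass: LFY (-0.06), SHR (0.01), GH3.3 (0.02) and CKX5, which had 170, 69.1 and 39.9 RPM in vrn2-5 against 183, 73.9 and 40.9 in Col-0 (log2 -0.09, edgeR adjusted p = 0.188; -0.01 with TMM).

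**Figure D4:**
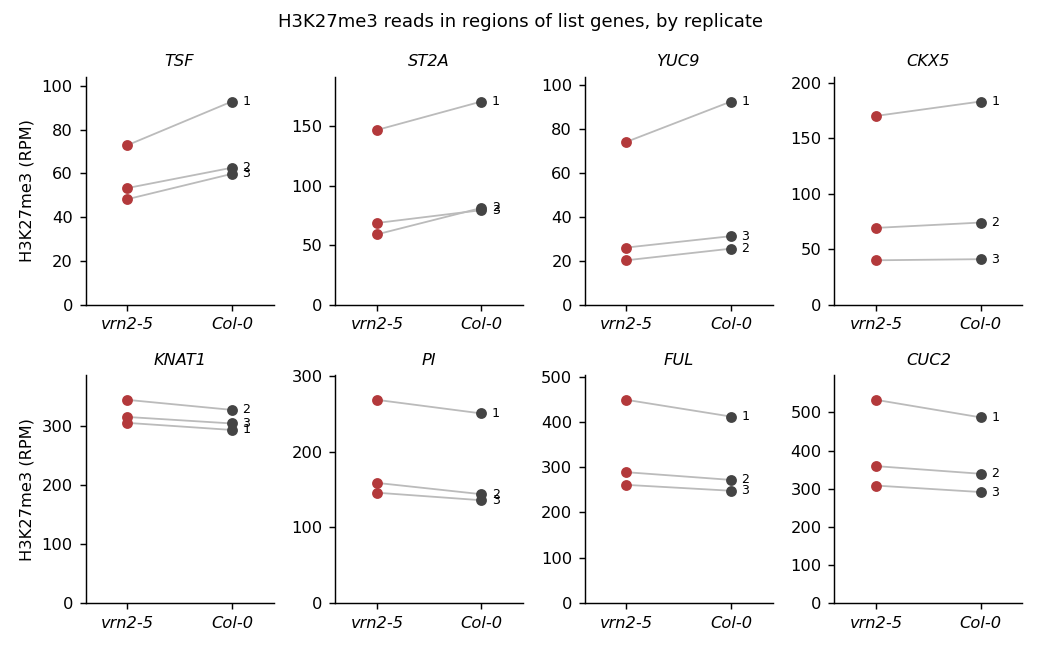
H3K27me3 reads in RPM in the regions of 8 list genes that carry a VRN2-YFP site, in vrn2-5 and Col-0 seedlings; lines join the libraries of 1 replicate number, given at the right. Lines climb towards Col-0 in TSF, ST2A, YUC9 and CKX5 and descend towards Col-0 in KNAT1, PI, FUL and CUC2. Values differ between replicate numbers more than between genotypes in most panels. Each replicate was counted over its own table's regions, whose extents can differ, so levels are comparable only within a replicate.

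Of the regions of the 10 strongest sites, 9 were tested and 2 were called, both lower, where 29.5% of all regions were called lower and 5.65% higher. NAC074 (log2 0.03), CYP79B2 (0.03, edgeR adjusted p = 0.556), AT1G49330 (-0.05) and DOF4.7 (0.02) did not pass. With TMM, NAC074 (log2 0.10, edgeR adjusted p = 0.0367) and DOF4.7 (log2 0.10, edgeR adjusted p = 0.0463) were called higher. The region of the site at the 3' end of AT1G72090 was lower, at 77.6, 83.2 and 68.8 RPM in vrn2-5 against 106, 96.9 and 85.0 in Col-0 (log2 -0.33, edgeR adjusted p = 8.46e-05), as was the region with KNU in its interval (log2 -0.39, edgeR adjusted p = 0.00158). The region between EXPA20 and AQI was listed in 2 tables only, with 16.5 and 3.85 RPM in vrn2-5 against 28.1 and 7.62 in Col-0 and log2 ratios of -0.77 and -0.99, without a test.

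Genes at the sites were expressed at low levels, as are other genes under H3K27me3. Of the 665 genes, 65.6% are listed in the seedling table, against 73.9% of genes under H3K27me3 without a peak and 81.8% of all genes. Among listed genes, the median level in Col-0 seedlings was 30.9 normalized reads per kb at the sites, against 35.1 for genes under H3K27me3 without a peak, 93.1 for genes with an outside peak and 53.7 for all genes. The median of the site genes was 27.4, 30.1 and 27 in vrn2-5, 30.0, 31.6 and 27 in Col-0, 35.8, 32.4 and 31.0 in vrn2-5 prt6-1, and 33.6, 32.1 and 30.7 in prt6-1, and the groups overlapped in both pairs. In pif4-2 rosettes, 49.2% of site genes were below 1 CPM per kb, against 37.4% of genes under H3K27me3 without a peak and 24.2% of all genes. The range was wide, and LHCB5, a light-harvesting protein gene, was the highest site gene at 30070 normalized reads per kb.

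No gene with a site changed its mRNA level past the threshold in any of the 3 comparisons. In seedlings 353 site genes passed the minimum level (53.1%, against 75.3% of all genes). Limma called 0 of them in vrn2-5 against Col-0, where the background was 0.0119% lower and 0.0119% higher, and 20 had an unadjusted p under 0.05, 8 of them higher (480 of 16820 genes in all). In vrn2-5 prt6-1 against prt6-1 limma also called 0, with a background of 0.0% in both directions, and 6 had an unadjusted p under 0.05 (191 in all). In rosettes edgeR called 0 of 458 site genes, again with a background of 0.0%, and 17 had an unadjusted p under 0.05, 3 of them higher (441 of 18561 in all). The median log2 difference was -0.0191, 0.00375 and 0.028, against -0.00221, 0.00039 and -0.0131 for all genes. On whole reads recovered from the seedling table, edgeR and DESeq2 called 0 site genes as well. In rosettes DESeq2 called AT4G23680 higher.

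CKX5 had the smallest p among the list genes with a site in both seedling comparisons. It had 75.6, 115 and 70.4 normalized reads in vrn2-5 (mean 87.0 ± 24.3 SD) against 26.2, 42.5 and 50.2 in Col-0 (39.7 ± 12.2). The libraries of vrn2-5 were all above those of Col-0 (log2 1.05, SE 0.307, n = 3 each, limma adjusted p = 1). In vrn2-5 prt6-1 it had 113, 147 and 96.6 (119 ± 25.6) against 38.1, 50.9 and 73.7 in prt6-1 (54.3 ± 18.0), again without overlap (log2 1.09, SE 0.307, limma adjusted p = 1). Its unadjusted p-values by limma were 0.00578 and 0.00472. Among libraries of at least 9.23 M reads it had 75.6 in vrn2-5 against 50.2 in Col-0, and among those of at most 1.79 M reads 115 and 70.4 in vrn2-5 against 26.2 and 42.5 in Col-0. Among rosettes it had 86 and 0 reads in vrn2-5 pif4-2 against 94 and 108 in pif4-2, and the library at 0 is the vrn2-5 pif4-2 replicate 2 described below.

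The other genes named in seedlings were chosen for the smallest p, and none passed. AT5G47000, a peroxidase gene, had 14.9, 5.00 and 10.1 normalized reads in vrn2-5 against 33.7, 42.5 and 21.6 in Col-0 (log2 -1.34, SE 0.394, limma adjusted p = 1). Libraries of vrn2-5 prt6-1 had 7.53, 4.58 and 5.95, and those of prt6-1 had 22.9, 24.0 and 11 (log2 -1.10). The groups did not overlap in either comparison, but the levels of 5.00 in vrn2-5 and 4.58 in vrn2-5 prt6-1 are each 1 read in their library. NLM1, an aquaporin gene, had 15.2, 25 and 16.8 in vrn2-5 against 48.7, 70.8 and 36.1 in Col-0 (log2 -1.22, SE 0.314, limma adjusted p = 1), without overlap. In vrn2-5 prt6-1 against prt6-1 its values, 64.0, 50.4 and 34.6 against 45.8, 62.6 and 41.4, overlapped (log2 -0.02).

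PYL2, an abscisic acid receptor gene, had 24.5, 30.0 and 20.1 normalized reads in vrn2-5 against 7.50, 14.2 and 4.62 in Col-0 (log2 1.16, SE 0.350, limma adjusted p = 1), and AGP10, an arabinogalactan protein gene, had 70.0, 40.0 and 50.3 against 86.2, 106 and 77.6 (log2 -0.72, SE 0.230). Neither gene's groups overlapped. In the prt6-1 background both overlapped: PYL2 had 39.4, 41.3 and 26 in vrn2-5 prt6-1, and 30.5, 23 and 15.8 in prt6-1 (log2 0.54), and AGP10 had 54.5, 68.8 and 63.3 in vrn2-5 prt6-1, and 57.2, 55.2 and 71.9 in prt6-1 (log2 0.02). H3K27me3 was lower in vrn2-5 at both: log2 -0.37 at PYL2 (edgeR adjusted p = 0.00561) and -0.54 at AGP10 (edgeR adjusted p = 0.00112). PLAT2 (log2 0.43), the oxygenase gene AT2G25450 (-0.44) and BUD2, of polyamine synthesis (-0.83), had the smallest p after AT5G47000 and CKX5 in vrn2-5 prt6-1 against prt6-1. The difference between both seedling effects was also fitted: limma called 0 of 353 site genes, and 6 (1.70%) had an unadjusted p under 0.05, beside 1 called and 225 (1.34%) at that p among all 16820 genes.

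Among other list genes, ST2A and GH3.3 had a replicate 3 that stood above the others in each genotype. ST2A had 224, 220 and 1500 normalized reads in vrn2-5 against 165, 81.4 and 974 in Col-0 (log2 0.81, SE 1.17). Libraries of vrn2-5 prt6-1 held 349, 321 and 1050, where those of prt6-1 held 49.6, 154 and 954 (log2 1.29). YUC9 had 84.1, 89.9 and 30.2 in vrn2-5 against 82.5, 42.5 and 20.5 in Col-0 (log2 0.50), with overlap. KNAT1 had 127, 145 and 107 in vrn2-5 against 101, 145 and 97.3 in Col-0 (log2 0.15), also with overlap. SHR had 51.4, 50 and 63.7 in vrn2-5 against 82.5, 70.8 and 50.2 in Col-0 (log2 -0.26). PI read 0 to 19.4 in vrn2-5 and 7.08 to 69.9 in Col-0, CUC2 and PR1 were near 0 in every seedling library, and TSF, LFY, FUL and IAA5 are not listed in the seedling table.

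**Figure D5:**
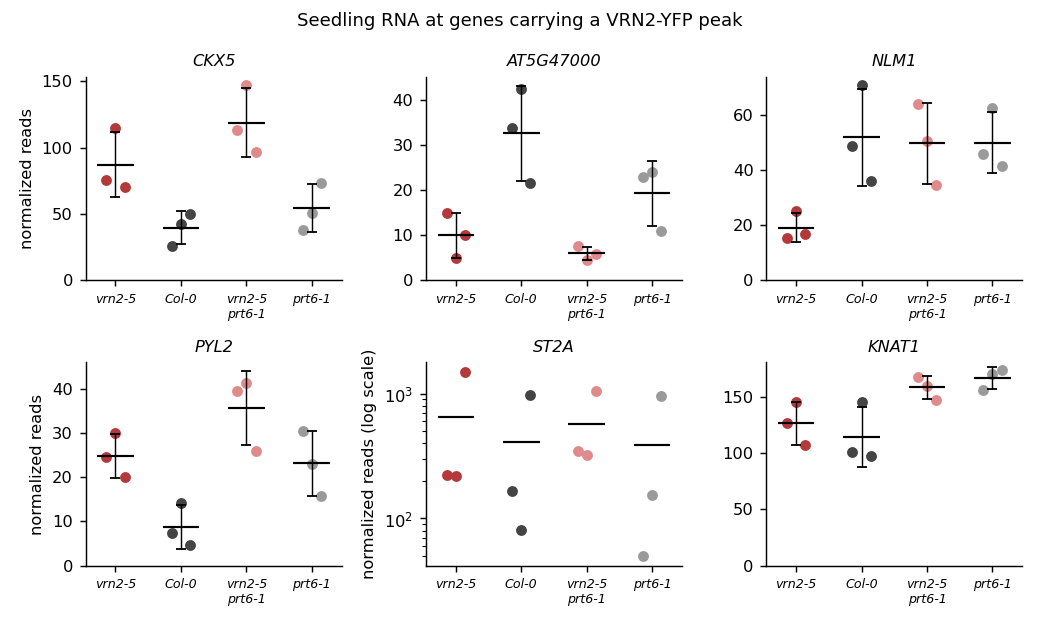
Normalized reads in each seedling library for 6 genes that carry a VRN2-YFP site, with the mean as a line and, except for ST2A, SD bars (n = 3). The ST2A axis is logarithmic. With no overlap of the libraries, CKX5 is higher and AT5G47000 lower in vrn2-5 than in Col-0, and so in the prt6-1 background. No gene shown passed the adjusted threshold. The lowest AT5G47000 values, 5.00 in vrn2-5 and 4.58 in vrn2-5 prt6-1, are 1 read each.

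In rosettes the libraries of vrn2-5 pif4-2 disagreed with each other. Of the 665 site genes, 151 (22.7%) and 265 (39.8%) had 0 reads in vrn2-5 pif4-2 replicates 1 and 2, against 32 (4.81%) and 58 (8.72%) in pif4-2. Over all genes the shares at 0 reads were 11.3% and 20.6% in vrn2-5 pif4-2, against 3.11% and 3.64% in pif4-2. The excess in vrn2-5 pif4-2 was thus not particular to site genes. Of 339 site genes with at least 20 reads in the other 3 libraries, 22 were at 0 in vrn2-5 pif4-2 replicate 2, while 0 of 319 were at 0 in replicate 1 by the same measure. The calls rest on this spread: without vrn2-5 pif4-2 replicate 1 edgeR called 124 site genes higher and 196 lower, without replicate 2 it called 54 higher and 33 lower, and with pif4-2 replicate 1 or replicate 2 left out it called 0. Over all genes these left-out fits called 4726 higher and 6738 lower, and 932 higher and 893 lower. Each has a single vrn2-5 pif4-2 library, assumed to vary as the 2 pif4-2 libraries do.

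The 5 site genes with the smallest p in rosettes did not pass by edgeR. AT4G23680, a polyketide cyclase family gene, had 220 and 425 reads in vrn2-5 pif4-2 against 26 and 40 in pif4-2 (log2 3.45, SE 0.424, edgeR adjusted p = 0.945; DESeq2 adjusted p = 6.46e-05). DOT1, a glycine-rich protein gene, had 34 and 29 reads in vrn2-5 pif4-2 against 215 and 274 in pif4-2 (log2 -2.71, SE 0.465, edgeR adjusted p = 0.945). AT5G66390, a peroxidase gene, had 54 and 81 against 6 and 5 (log2 3.77, SE 0.918). KNAT1 had no read in vrn2-5 pif4-2 against 30 and 35 in pif4-2, at least 19.5-fold lower by a floor of 3 reads over the group. AT1G11740, an ankyrin repeat gene, likewise had 0 and 0 against 23 and 37, at least 18.0-fold lower. The groups of these 5 genes, picked for their p, did not overlap.

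SHR had 86 and 198 reads in vrn2-5 pif4-2 against 359 and 299 in pif4-2 (log2 -1.08, SE 0.386, edgeR adjusted p = 0.945), and PR1 had 135 and 24 against 12 and 1 (log2 3.93, SE 1.62). FUL had 43 and 61 against 53 and 45, and TSF 0 and 0 against 12 and 1. SHR, PR1 and TSF did not overlap between the groups, and FUL did. The share of all genes without overlap is not given, here or in seedlings, so lack of overlap carries no weight of its own.

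Changes in the mark and in mRNA were set side by side for the site genes measured in both. Pearson's r between the log2 difference in H3K27me3 and that in mRNA was -0.0843 for vrn2-5 against Col-0 (334 genes), -0.144 for vrn2-5 prt6-1 against prt6-1 (334 genes) and -0.0226 for vrn2-5 pif4-2 against pif4-2 (430 genes), where all 3 use the same H3K27me3 libraries of vrn2-5 and Col-0. Of the 117 seedling genes whose region was lower in vrn2-5, mRNA was above Col-0 for 57. In the other comparisons it was above the control for 66 of 117 and 83 of 151. In regions that were higher, mRNA was above the control for 7 of 19, 4 of 19 and 14 of 23. Over all tested site genes the share above the control was 47.0, 50.7 and 51.7% in the 3 comparisons. Over all tested genes it was 49.7, 50.1 and 49.2%. The counts in higher regions are small, and no test was made.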

How the data were processed

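Sites, lists and tests were chosen with earlier results of these data known. The submitters' processing notes name BWA and Bowtie as aligners and TAIR10 as the genome; MACS2, MACS3, SICER and DESeq2 are also named per the submitters' processing notes, all without versions or settings. The authors called VRN2-YFP peaks per replicate, and no caller is named for replicate 3. The deposited peak lists give a fold over background (a ratio) and a −log10 q-value. Per the file headers, the H3K27me3 tables hold read counts, RPM, ratios and false discovery rates (adjusted p-values), with 1 vrn2-5 and 1 Col-0 library each over that table's own regions, so same-numbered libraries were treated as pairs. Their deviations correlated at 0.941 to 0.977. Libraries of the same table share its region extents, which differ between tables, so this correlation cannot show that the samples themselves were paired. Input libraries were not used here. The deposited seedling table holds a normalized signal, which was tested with limma on log2(value + 5) for genes with a mean of at least 10 in place of a foreseen count test; fold changes of low genes are understated. Its values were whole reads divided by a size factor for 100% of values at a tolerance of 0.01. Rosette values are raw counts as deposited.

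Peaks and regions were merged with an overlap of 1 bp. Region counts were summed per library and tested with edgeR's quasi-likelihood method, the authors' library totals and replicate as a block; rosette counts with edgeR (TMM) on 4 libraries (18561 genes tested), and seedling values on all 12 libraries (16820 genes tested). Gene and region positions are TAIR10. RefSeq (TAIR10.1) gave symbols and the order of neighbouring genes only. No sequence was used, and motifs were not searched. Scripts were tested on simulated data. Named genes were those at the 10 strongest sites, at the 10 H3K27me3 regions with the smallest p in each direction, the 5 with the smallest p per RNA comparison and list genes; regions with several sites and RefSeq neighbours were named after their values were seen. Versions were edgeR 4.0.16, limma 3.58.1, DESeq2 1.42.0 and R 4.3.3.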

Additional observations from a re-analysis of the deposited data

How the results depend on the processing

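The number of sites was 337 when all 3 lists had to hold a peak, 4870 when any 1 list sufficed and 220 at a −log10 q of at least 10. Stricter overlap or other table minimums moved it by less than 1.5 times. H3K27me3 calls at regions with a site, 256 lower and 49 higher, became 129 and 129 with TMM, 42 and 104 with DESeq2, and 0 and 0 with no replicate block. Leaving out replicates in turn gave 149 to 196 lower (149 without replicate 2) and 19 to 47 higher (19 without replicate 1), and peaks in all 3 lists gave 87 and 19. Shares over all regions are not given for the DESeq2, left-out and 3-list counts, so these do not set the sites apart from other regions. In rosettes DESeq2 called 1 gene higher, and leaving out a library gave 0 to 124 higher and 0 to 196 lower. The log2 difference of LFY in rosettes, 0.48, ranged from -6.13 (without vrn2-5 pif4-2 replicate 1, edgeR adjusted p = 0.0313) to 1.61 over the left-out libraries. The cause was not tested. Seedling calls stayed at 0 under every alternative run, the replicate block included, which also gave 0 in rosettes. Deviations of same-numbered RNA libraries correlated at -0.216 to 0.499. In seedlings they were positive for replicate 3 in both comparisons (0.328 and 0.499) and of mixed sign for replicates 1 and 2. The main seedling fit held genotype only and took up no effect of the replicate number. Summit motifs and their window were not run. Counts per list depend on peaks of fold near 2, genes of few reads in shallow seedling libraries, and 2 rosette libraries a genotype. No precipitation from plants without the tag was analysed here.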
